A study of Mus musculus with 11 samples.

Results

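Aif1, Cx3cr1, Csf1r, P2ry12, Tmem119, Cd68, Trem2, Tyrobp and Itgam are 9 genes by which microglia, the resident macrophages of the retina, and other tissue macrophages are recognized. They were taken as a list of symbols, each matched to its Ensembl identifier, and are 9 of the 38393 genes in the files. RNA-Seq libraries were prepared from the whole eye after the lens and cornea had been taken away, so that retina, RPE, choroid, sclera and ciliary body were present, in mice of 1 to 2 months on the C57BL/6 background. Libraries came from 5 wild type (WT) animals and from 6 miR-211-/- (KO) animals, in which the miR-211 precursor was deleted from the germ line and is therefore missing from every cell type of the eye. The comparison asks whether the amount of RNA of these immune genes differed between the genotypes at an age at which the study had not yet seen cone loss. A bulk library does not separate the number of cells of a type from the amount of RNA in each cell, and the 2 cannot be told apart in any of the values that follow.

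Microglia live among the retinal neurons, where they survey synapses and take up debris, while other macrophages live in the choroid, the ciliary body and the sclera. Csf1r is the receptor tyrosine kinase for Csf1 and Il34, on which microglia depend for survival, and Cx3cr1 is the receptor for the neuronal chemokine fractalkine. P2ry12, a purinergic receptor for ADP, and Tmem119, a membrane protein, are used to tell microglia from other macrophages, whereas Aif1 (Iba1), an actin-binding protein, and Cd68, a lysosomal glycoprotein, mark both. Trem2 is a lipid-sensing receptor that signals through the adaptor Tyrobp (DAP12), and Itgam (Cd11b) is the integrin chain that pairs with Itgb2 to form complement receptor 3.

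The mature miRNA that the KO animals lack and its paralog miR-204-5p, which they keep, are shown because they carry the same seed. In the RefSeq sequences of GRCm38.p6, bases 2 to 8 are given in capitals.
mmu-miR-211-5p, chr7:64205831-64205852, plus strand: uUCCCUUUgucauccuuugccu
mmu-miR-204-5p, chr19:22750610-22750631, plus strand: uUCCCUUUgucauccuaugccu
The 2 miRNAs differ at 1 base, outside the seed. The 7 letters AAAGGGA, which pair with this seed, were looked for in the annotated 3′ UTRs (Gencode, GRCm38) of the 9 members and were found in 1, P2ry12. Among the 14511 tested genes with an annotated 3′ UTR, 17.7% held the letters. The P2ry12 site begins at base 420 of the UTR and is shown with its flanks and the match in capitals.
P2ry12, match at chr3:59216783-59216789, minus strand: acaaaaccAAAGGGAcgtaaatc
A match of letters is a description and not a measured target site.

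All 9 members were detected in every library. Values are CPM, the counts of read pairs per gene brought to a common library size with edgeR's TMM factors. The libraries held between 20282241 and 36317673 read pairs. The least read member, Aif1, rested on 19 to 85 read pairs per library, and Csf1r on 1049 to 2427. On the deposited FPKM scale, which corrects for gene length, the order of the mean levels over the 11 libraries was Csf1r (13.7 ± 2.79, SD), Tyrobp (11.6 ± 6.92), Itgam (8.82 ± 5.52), Cd68 (6.61 ± 3.26), Trem2 (3.23 ± 1.90), Tmem119 (3.21 ± 0.654), Cx3cr1 (2.56 ± 0.739), P2ry12 (1.78 ± 0.438) and Aif1 (1.77 ± 0.817). Csf1r exceeded Tyrobp in 10 of 11 libraries. Cd68 exceeded Trem2, Tmem119 exceeded Cx3cr1, and Cx3cr1 exceeded P2ry12 in 11 of 11 libraries each. The neighbours Tyrobp and Itgam, Itgam and Cd68, Trem2 and Tmem119, and P2ry12 and Aif1 kept no fixed order, since the first of each pair was the higher in 7, 6, 3 and 4 of the 11 libraries.

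Of the libraries, WT replicate 1 stood apart before any comparison. It was the highest of all 11 for 8 of the 9 members, the exception being P2ry12, which was highest in KO replicate 3. This library also had the lowest sum of 6 rod genes, 26267 CPM against 30702 to 41580 in the other 10. Its Gfap, an intermediate filament of astrocytes and stressed Müller glia, was at 603 CPM against 145 to 255. The corneal keratin Krt12 was at 4.26 CPM in it and at 406 to 3514 in the others. Adipocyte genes summed to 554 CPM in it and to at most 316 elsewhere. Whether these differences have a part in its immune gene levels was not tested, and the comparisons of the members and of the gene lists are therefore given with and without this library.

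The receptors that microglia need for survival and for contact with neurons came out as follows. Csf1r was at 86.1, 51.4, 53.8, 56.4 and 57.9 CPM in WT replicates 1 to 5, and from 45.5 to 55.2 CPM in the 6 KO libraries with a median of 51.7. The groups overlapped, with WT replicate 2 and replicate 3 inside the KO range. The log2 fold change (KO minus WT) was -0.27 ± 0.14 (SE), with a 95% interval of -0.55 to 0.01, and edgeR's likelihood-ratio test gave an unadjusted p of 0.0611.

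Cx3cr1 was at 15.1, 7.30, 9.03, 9.43 and 7.38 CPM in WT, and from 6.13 to 11.4 CPM in KO with a median of 7.77. Only WT replicate 1 lay above the KO range. Its log2 fold change was -0.23 ± 0.24 (SE).

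P2ry12, the member with the seed match, was at 5.14, 2.54, 4.19, 3.11 and 2.86 CPM in WT, and from 3.18 to 5.26 CPM in KO with a median of 3.62. WT replicates 2, 4 and 5 lay below the lowest KO library and none above the highest. It was the only member with a fold change above 0 in the fit to all libraries, at 0.08 ± 0.23 (SE, 95% interval -0.38 to 0.54).

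Tmem119 was at 10.6, 6.44, 7.21, 6.92 and 6.51 CPM in WT, and from 5.99 to 8.29 CPM in KO with a median of 6.12. The 4 other WT libraries all lay inside the KO range, and the log2 fold change was -0.20 ± 0.18 (SE).

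Of the general macrophage markers, Aif1 was at 3.02, 1.15, 1.12, 1.05 and 0.788 CPM in WT, and from 0.778 to 2.03 CPM in KO with a median of 1.24. Its KO median lay above its WT median of 1.12, while its log2 fold change was -0.15 ± 0.38 (SE). Cd68 was at 18.7, 6.72, 4.92, 6.47 and 7.05 CPM in WT, and from 3.89 to 8.89 CPM in KO with a median of 6.95. WT replicate 1 was 2.10 times the next library, and the log2 fold change was -0.38 ± 0.35 (SE).

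The receptor and adaptor pair showed the widest gap between WT replicate 1 and the rest. Trem2 was at 10.6, 2.83, 3.50, 3.41 and 3.69 CPM in WT, and from 2.46 to 4.55 CPM in KO with a median of 3.18. Tyrobp was at 16.5, 5.25, 4.41, 4.67 and 5.89 CPM in WT, and from 3.58 to 5.57 CPM in KO with a median of 4.85. WT replicate 1 held 2.34 times the Trem2 and 2.81 times the Tyrobp of the next highest library. The log2 fold change was -0.52 ± 0.36 (SE) for Trem2 and -0.63 ± 0.35 (SE, 95% interval -1.31 to 0.05) for Tyrobp.

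Itgam varied most, at 96.2, 54.2, 14.6, 54.5 and 22.1 CPM in WT, and from 11.7 to 57.9 CPM in KO with a median of 31.0. Both genotypes held high and low libraries. The log2 fold change was -0.53 ± 0.51 (SE).

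**Figure D1:**
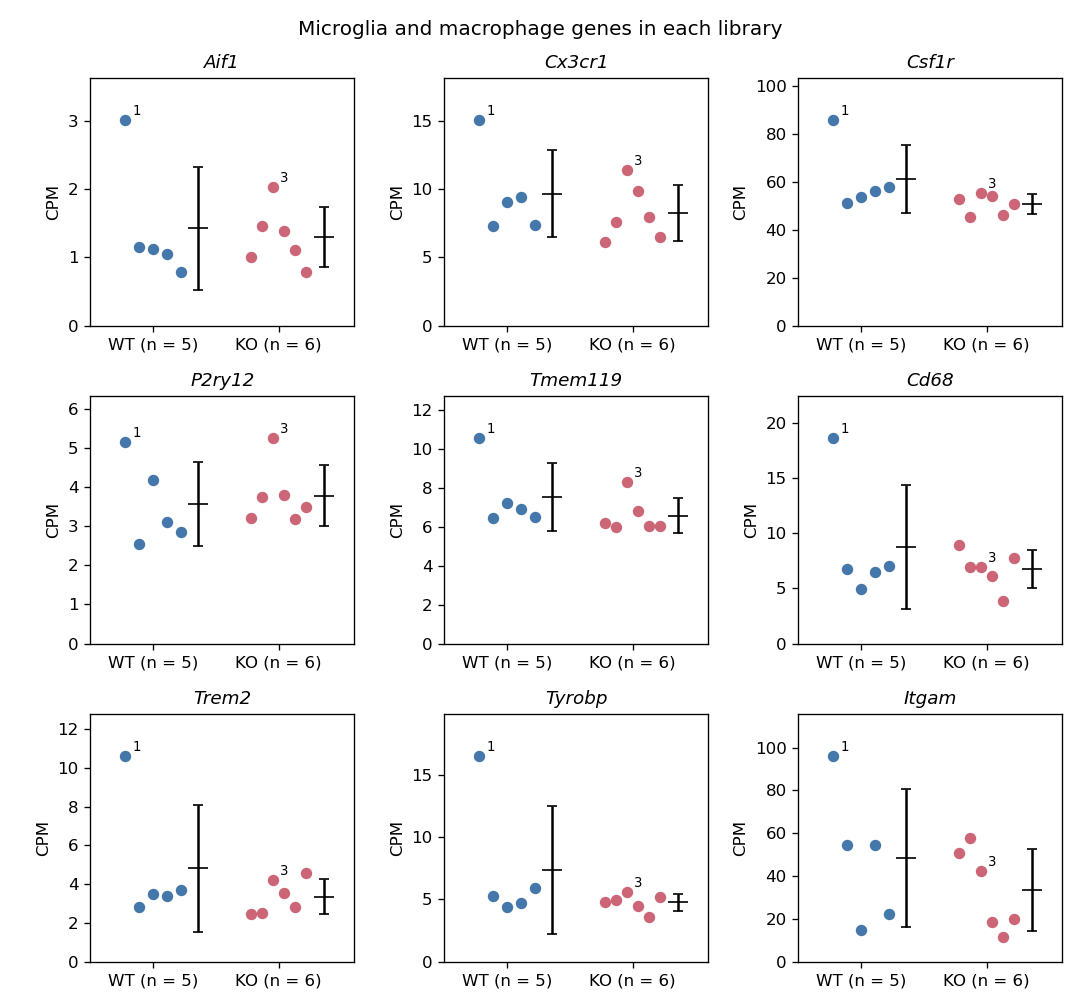
CPM of each member (vertical axis, from 0) in the 5 WT (blue) and 6 KO (red) libraries, 1 point per library in replicate order, with the mean and SD beside them; the points marked 1 and 3 are WT replicate 1 and KO replicate 3. WT replicate 1 is the highest point in 8 of the 9 panels, and the ranges of the genotypes overlap in all of them.

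No member differed between the genotypes by the test. All 9 passed the expression filter, 8 had a log2 fold change below 0, and the median of the 9 was -0.27, beside 48.9% of all 15767 tested genes below 0 and a median of all genes of 0.00. With Benjamini-Hochberg adjustment of the edgeR p-values over all tested genes, 0 of 9 members were under 0.1, where 0.00634% of all genes were, and every member had an adjusted p of 1.00. At an unadjusted edgeR p under 0.05, 0 of 9 members were lower, against 1.77% of all genes, and 0 of 9 were higher, against 0.323%. DESeq2 gave 1 member under 0.05, Csf1r, and the share of all genes is not given for that fit. The groups of no member were free of overlap, and 0.0761% of all genes had every KO library below every WT library. In a two-sided exact permutation test of log2 CPM over all 462 ways to divide the libraries into 5 and 6, run for each of the 9 members, the p ran from 0.0455 for Csf1r to 0.922 for Aif1.

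Without WT replicate 1 most of the differences became smaller, those of P2ry12 (0.25) and Aif1 excepted. The median log2 fold change of the members was -0.01, and 6 of 9 were below 0, beside 48.1% of all genes in that fit. Trem2 went to -0.00 ± 0.23 and Tyrobp to -0.09 ± 0.18 (SE), with the 95% interval of Tyrobp from -0.45 to 0.27. Csf1r went to -0.11 ± 0.10 (SE, 95% interval -0.31 to 0.08), which is the narrowest interval of the 9. Aif1 at 0.33 ± 0.30 and Cd68 at 0.10 ± 0.23 (SE) changed sign. The WT spread of Tyrobp fell with it, from 7.35 ± 5.17 CPM (SD, n = 5) to 5.05 ± 0.658 CPM (SD, n = 4), beside 4.75 ± 0.689 CPM in KO (SD, n = 6). WT replicate 1 was left out for being the highest library for 8 of the 9 members, a choice that by itself raises the fold changes. Leaving out KO replicate 3 instead, the highest KO library for 6 members, gave 9 members below 0 and a median of -0.35.

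**Figure D2:**
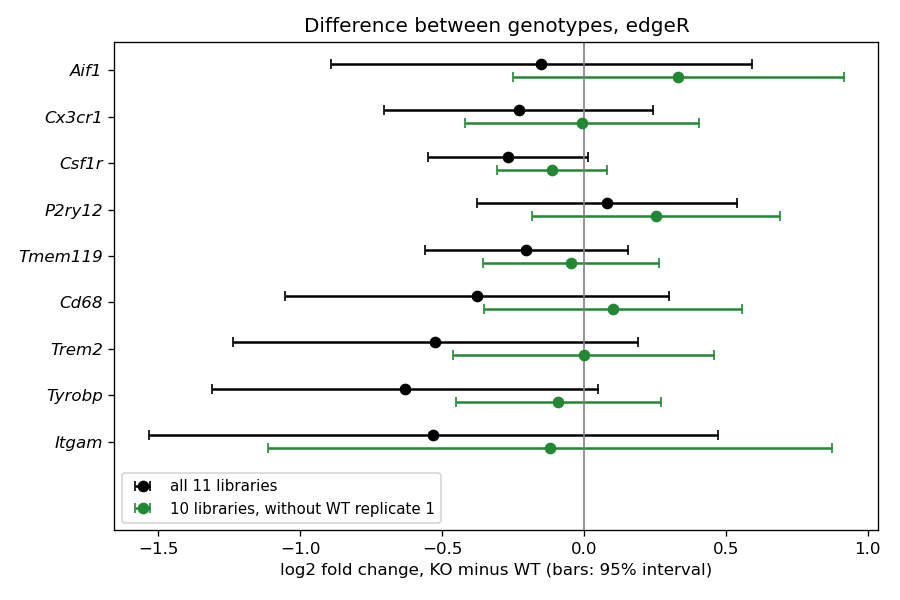
Log2 fold change of each member, KO minus WT, with its 95% interval from edgeR, in all 11 libraries (black) and without WT replicate 1 (green). Every interval includes 0 in both fits, and Trem2 and Tyrobp move from -0.52 and -0.63 to -0.00 and -0.09.

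The libraries fall into 2 series, of 5 and 6 libraries, by how the study's supplementary table heads their columns, either by the number of a mouse or by its age. Both series hold both genotypes, and the headings do not say what else distinguishes them. The only WT libraries of the mouse-number series are replicates 1 and 2. Within that series 8 of 9 members were lower in KO, with log2 fold changes of -1.13 for Trem2 and -1.10 for Tyrobp. Within the age series 6 of 9 were lower, with 0.05 for Trem2 and -0.17 for Tyrobp. The effect of genotype on Trem2 differed between the series by -1.18 on the log2 scale in the interaction term (edgeR, unadjusted p = 0.0727, adjusted p = 1.00). With the series as a covariate, 3 of 9 members were lower in KO at an unadjusted p under 0.05, against 5.23% of all genes in the same fit. These were Itgam (unadjusted p = 0.0186, edgeR), Csf1r (unadjusted p = 0.0399) and Tyrobp (unadjusted p = 0.0426). Their lowest edgeR adjusted p was 0.616.

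Among themselves the members moved together over libraries, but largely through WT replicate 1. Pearson's r of log2 CPM was above 0 for 36 of 36 pairs over 11 libraries, with a median of 0.71, and for 25 of 36 pairs with a median of 0.30 over the 10 libraries without it. The 6 pairs among Aif1, Cx3cr1, P2ry12 and Tmem119 kept r from 0.61 to 0.85 without that library. By rank (Spearman) these pairs ran from 0.30 (Aif1 with Tmem119) to 0.70 (Cx3cr1 with Tmem119). All 4 of these genes had their highest KO value in replicate 3, as had Csf1r and Tyrobp. Pearson's r of Cd68 without WT replicate 1 was 0.76 with Tyrobp and 0.67 with Itgam. Cd68 with Cx3cr1, both macrophage markers, was at 0.44 with WT replicate 1 and at -0.38 without it. Csf1r kept r of 0.62 with Tmem119, 0.52 with Trem2 and 0.49 with Tyrobp. These correlations are descriptions over libraries that share genotype and dissection, and Aif1 is read too thinly for its values to be precise.

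**Figure D3:**
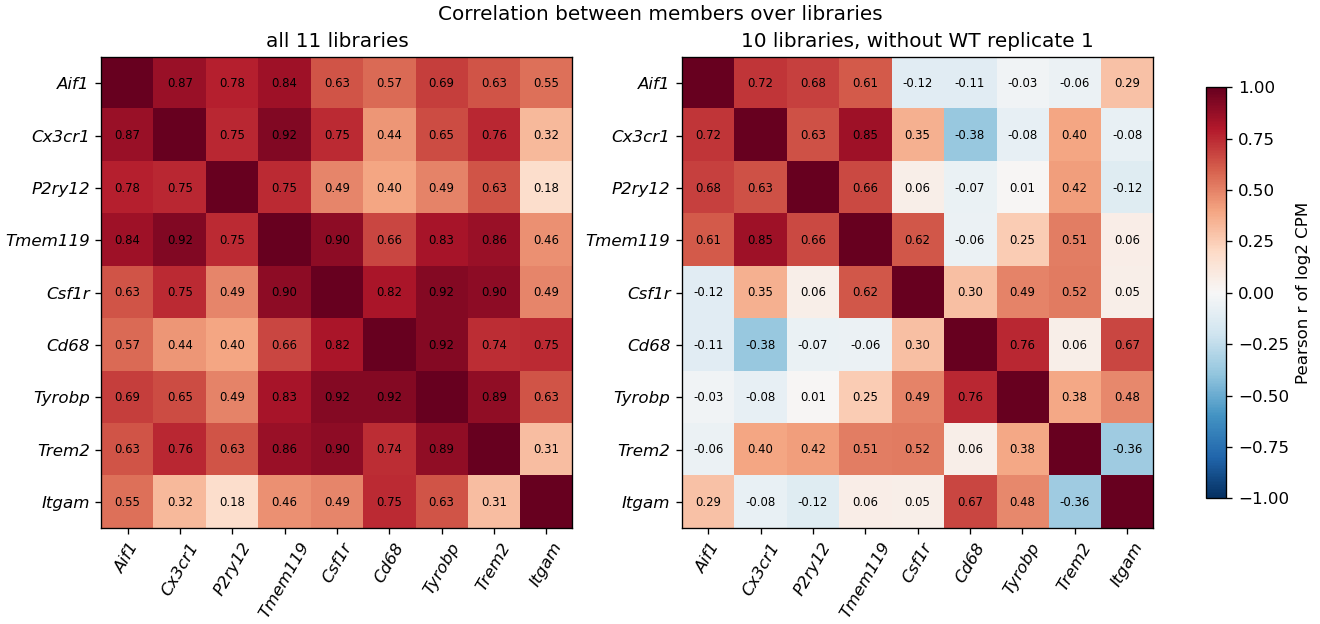
Pearson's r of log2 CPM between members over all 11 libraries (left) and over 10 libraries without WT replicate 1 (right), from -1 (blue) to 1 (red). On the right, Aif1, Cx3cr1, P2ry12 and Tmem119 still form a block with r from 0.61 to 0.85, while the other 30 pairs run from -0.38 to 0.76.

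Itgam had the lowest median r with the other members over 11 libraries, 0.47 over its 8 pairs, with a range from 0.18 to 0.75. Without WT replicate 1 its median was 0.06. The 8 pairs of Cd68 then also lay on both sides of 0, from -0.38 to 0.76. The log2 fold change of Itgam went from -0.53 to -0.12 ± 0.51 (SE) without that library. It was between 42.2 and 96.2 CPM in the 6 libraries with the highest sum of 5 keratins of the ocular surface (3100 to 7110 CPM), which are WT replicates 1, 2 and 4 and KO replicates 1 to 3. In the other 5 libraries, where the keratins summed to 961 to 1916 CPM, it was between 11.7 and 22.1 CPM. The 6 libraries are the whole mouse-number series with WT replicate 4 of the age series, and the other 5 are all of the age series. Keratin level and library series can therefore hardly be told apart here. Itgb2, the integrin partner of Itgam, did not separate the same libraries, at 2.96 to 10.9 CPM in the 6 and 2.60 to 4.73 CPM in the 5. Per length, the FPKM of Itgam was 5.65 to 11.2 times that of Itgb2 in the 6 libraries and 2.10 to 3.99 times in the 5. Sought after these values were seen, the genes whose log2 CPM was most like that of Itgam were Adgrf1 (r = 0.99 over 11 libraries), an adhesion receptor of epithelia, and Myl12a, Naip1 and Clca4a (r = 0.99 each). No gene of the microglia and macrophage lists was among the 10 most alike. The part of these tissues in the Itgam values was not tested. Since the libraries fall into these 2 sets, the correlations with Itgam are descriptions only. By rank (Spearman), Itgam over the 11 libraries was at 0.78 with the keratin sum and at 0.86 with the sum of skeletal muscle genes. With the sum of adipocyte genes it was at 0.69. The 6 libraries with high keratins also held more of the skeletal muscle genes, which summed to 2397 to 10570 CPM in them and to 1067 to 3599 CPM in the other 5, and of adipocyte genes in part (13.2 to 554 against 12.4 to 56.1 CPM), but both ranges overlap.

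**Figure D4:**
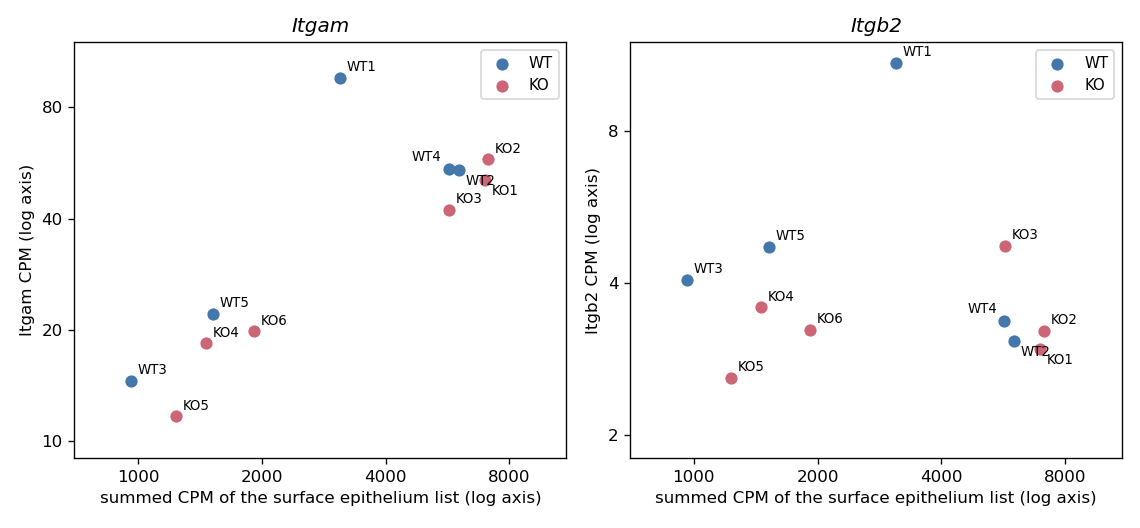
CPM of Itgam (left) and of its partner Itgb2 (right) against the summed CPM of 5 surface epithelium keratins, in 5 WT (blue) and 6 KO (red) libraries, on log axes. Itgam is at 42.2 CPM or more in the 6 libraries with 3100 CPM or more of keratins and at 22.1 CPM or less in the other 5, a step that Itgb2 does not show. The 6 libraries are the whole mouse-number series with WT replicate 4.

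The ligands and signalling partners of the members were mostly read lower in KO, without passing the test. Of 14 listed, 13 were tested and 12 had a log2 fold change below 0, with a median of -0.37 and -0.08 without WT replicate 1. Cx3cl1, the fractalkine that binds Cx3cr1, was at 79.9 ± 9.75 CPM in WT (SD, n = 5) and 79.9 ± 10.8 CPM in KO (SD, n = 6). Csf1, a ligand of Csf1r, was at 19.8 ± 6.04 and 16.4 ± 2.08 CPM, with 30.3 CPM in WT replicate 1. Inpp5d (Ship1), the phosphatase that restrains signals from Tyrobp, had a log2 fold change of -0.53 ± 0.20 (SE, unadjusted p = 0.00684, edgeR) and of -0.33 without WT replicate 1 (unadjusted p = 0.0291). Of 10 transcription factors of the lineage, all 10 were below 0, with a median of -0.39 and of -0.16 without WT replicate 1, and 0 had an unadjusted p under 0.05 (edgeR). Their most abundant genes, Mef2c and Maf, are also used by neurons and by lens or muscle cells. Mef2c had a log2 fold change of -0.11 ± 0.17 (SE).

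Of 18 further microglia genes 17 were tested, 15 were below 0 and 4 were lower at an unadjusted p under 0.05 (edgeR), where 1.77% of all genes were: P2ry6, C1qc, Laptm5 and C1qb, with log2 fold changes of -0.58, -0.66, -0.53 and -0.60. Without WT replicate 1 the median of these 17 genes went from -0.42 to -0.08, and 0 were lower at p under 0.05, where 0.841% of all genes were. C1qb and C1qc, subunits of the complement initiator that microglia make in the retina, were at 54.5 and 48.7 CPM in WT replicate 1, against at most 20.9 and 17.9 CPM in the other 10 libraries. Lpcat2, a phospholipid acyltransferase, had a log2 fold change of 0.00 ± 0.10 (SE).

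Genes of other tissue macrophages gave the most negative median of the 6 immune lists. Of 16 listed 14 were tested, all 14 were below 0 and the median was -0.50, or -0.19 with 10 of 14 below 0 without WT replicate 1. Stab1, a scavenger receptor of perivascular macrophages and sinusoidal endothelium, was at 38.0 ± 6.79 CPM in WT and 27.8 ± 3.53 CPM in KO. Its log2 fold change was -0.45 ± 0.14 (SE, unadjusted p = 0.00165, edgeR), and -0.36 without WT replicate 1 (unadjusted p = 0.00905). Stab1 and Cd74 are among the genes that the study chose on these same libraries. Adgre1 (F4/80) and Fcgr1 had unadjusted p of 0.0448 and 0.0489 (edgeR), and of 0.186 and 0.265 without WT replicate 1. The abundant Lyz2, a lysozyme, was at 135 CPM in WT replicate 1 and at 21.3 to 58.5 CPM elsewhere.

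Antigen presentation genes of MHC class II, which resident microglia express weakly, were below 0 for 6 of 6 tested of 7, with a median of -0.42, and for 5 of 6 with a median of -0.16 without WT replicate 1. Cd74, the invariant chain, was at 31.2 ± 8.31 CPM in WT and 20.6 ± 5.17 CPM in KO (log2 fold change -0.60 ± 0.22, SE, unadjusted p = 0.00719, edgeR). H2-Ab1 and H2-Eb1 had log2 fold changes of -0.47 and -0.57. Without WT replicate 1, Cd74 was at -0.43 (unadjusted p = 0.0397, edgeR), H2-Ab1 at -0.22 (unadjusted p = 0.214) and H2-Eb1 at -0.29 (unadjusted p = 0.234). Genes that rise in reactive microglia were below 0 for 11 of 11 tested of 18, with a median of -0.36, and for 8 of 11 with a median of -0.09 without WT replicate 1. Among these, Gpnmb, which the RPE and melanocytes also make, was at 373 ± 47.9 and 281 ± 33.8 CPM, a log2 fold change of -0.41 ± 0.15 and of -0.47 without WT replicate 1 (edgeR, unadjusted p = 0.00110). Spp1 (osteopontin), which ganglion cells also make, had a log2 fold change of -0.90 ± 0.31 (SE), and of -0.40 without that library (unadjusted p = 0.00451, edgeR). Apoe and Ctsd, the most abundant genes of the list, are read largely from other cells too, with 1954 and 1041 CPM in WT replicate 1 against at most 1110 and 623 CPM.

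Over these 6 lists together, 68 of 71 tested genes had a log2 fold change below 0, the median was -0.41, 13 were lower and 0 higher at an unadjusted p under 0.05 (1.77% and 0.323% of all genes), and 0 had an edgeR adjusted p under 0.1. WT replicate 1 was the highest library for 60 of the 71. Without it 55 of 71 were below 0, the median was -0.12, and 5 were lower at p under 0.05, against 0.841% of all genes. That count was 20 without KO replicate 1, 6 without KO replicate 2 or KO replicate 5, and 8 without KO replicate 6. The share of all genes is not given for those fits. The genes of a list are read in the same libraries and are not independent of each other.

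**Figure D5:**
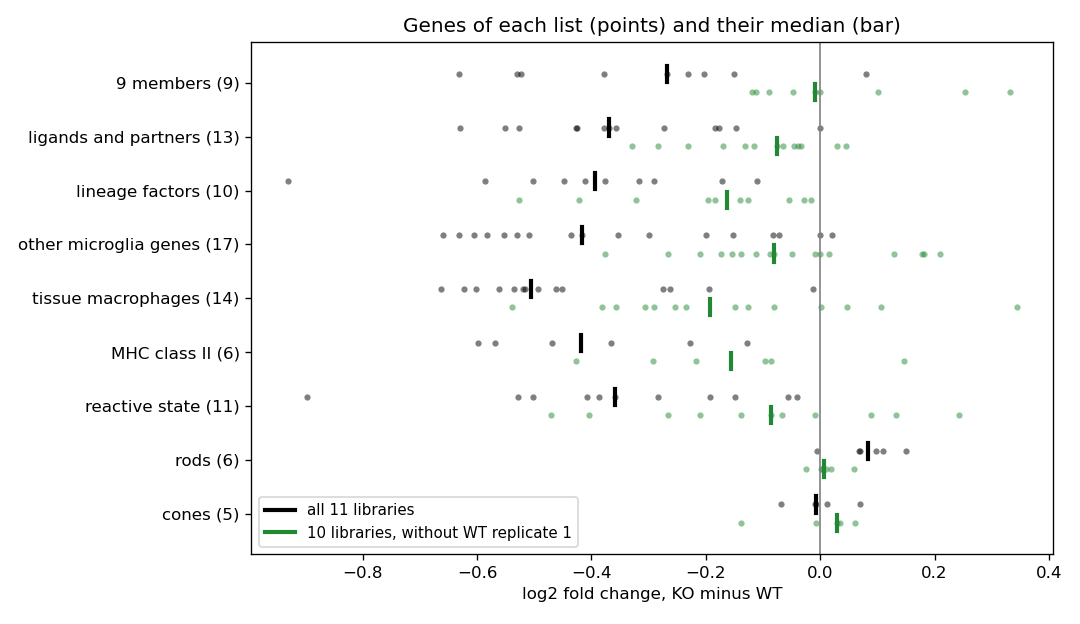
Log2 fold changes (KO minus WT) of the tested genes of each list as points, with the median as a bar, for all 11 libraries (black) and without WT replicate 1 (green); the number of tested genes is in brackets. The median of the 9 members goes from -0.27 to -0.01 and that of the tissue macrophage list from -0.50 to -0.19, while rods and cones stay within 0.1 of 0.

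Markers of other cells that could share these genes were read in the same libraries. No gene of 11 for T, B and natural killer cells passed the filter, and they summed to 2.46 to 4.71 CPM in WT and 1.92 to 3.15 CPM in KO. Of 10 monocyte and dendritic cell genes 4 were tested and 3 were below 0 (median -0.12), while without WT replicate 1 0 of 4 were and the median was 0.10. Plac8, the second most abundant, was at 16.5 ± 8.95 CPM in WT and 14.3 ± 9.06 CPM in KO. Of 10 neutrophil and mast cell genes 5 were tested and 5 were below 0 (median -0.73, and -0.22 over the 4 genes tested without WT replicate 1), with S100a9 of neutrophils at 7.63 CPM in WT replicate 1, where no other library passed 2.21 CPM. Hemoglobin and Alas2 transcripts of red cells summed to 198 to 1940 CPM in WT and 145 to 1182 CPM in KO, with 412 CPM in WT replicate 1. None of the genes of these lists was at 0 in all libraries.

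Genes of other tissues around the eye were read lower in KO as well, without passing the test. All 7 tested adipocyte genes were below 0, with a median of -2.01 and of -1.24 without WT replicate 1, and their sum was 13.6 to 554 CPM in WT and 12.4 to 273 CPM in KO. Adipoq, Cfd, Fabp4 and Pck1 of this list are among the genes that the study called lower in KO on these same libraries. Their direction is therefore no separate result. Skeletal muscle genes were below 0 for 8 of 8, with a median of -0.56 and of -0.24 without WT replicate 1, and summed to 1326 to 10570 CPM in WT and 1067 to 10547 CPM in KO. Fibroblast genes (5 of 5 below 0, median -0.33) and endothelial genes (5 of 5, median -0.33) had medians of -0.17 and -0.18 without it, and Vwf of endothelium had a log2 fold change of -0.43 ± 0.16 (SE, unadjusted p = 0.00641, edgeR). Lens genes, of a tissue that was taken away, reached a sum of 84597 CPM in WT replicate 4, and the next highest sum was 24024 CPM, in KO replicate 3. Rod, cone, Müller and RPE lists had medians of 0.08, -0.01, -0.02 and -0.02, and of 0.01, 0.03, -0.10 and -0.08 without WT replicate 1. The median of the surface keratins turned from -0.36 to 0.23 without that library, with 0 of 5 below 0. The part of these tissues in the immune gene values was not tested.

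The 10 genes that are no members and whose log2 CPM followed the mean of the members most closely over 11 libraries were Ggt1, Clec7a, Ifitm3, Ly86, Cd33, Csf1, Alox5ap, Vcam1, Crabp2 and Cyth4, with r from 0.94 to 0.95. All 10 were highest in WT replicate 1, where Vcam1, an adhesion molecule, was at 50.7 CPM against 15.7 to 21.9 CPM in the other 10 libraries. Without the 2 libraries farthest from the median, WT replicate 1 and KO replicate 3, r fell to -0.18 for Clec7a (dectin-1) and was 0.82 for Ifitm3, an interferon-induced membrane protein. Csf1, the ligand of Csf1r, kept 0.77. Ly86 and Vcam1 fell to 0.17 and 0.34, and the other 5 lay between 0.57 and 0.69. None of the 10 remained among the 10 most alike over those 9 libraries.

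The windows before the transcription start of 6 members were in the RefSeq promoter table (GRCm38.p6), and those of Trem2, Cd68 and Itgam are shown because the first pair was high in WT replicate 1 only while Itgam also was high in 5 other libraries. The 250 bases before the start are given, with GAGGAA, the core read by the myeloid factor PU.1 (Spi1), or its reverse complement TTCCTC in capitals.
Trem2, chr17:48346151-48346400, plus strand: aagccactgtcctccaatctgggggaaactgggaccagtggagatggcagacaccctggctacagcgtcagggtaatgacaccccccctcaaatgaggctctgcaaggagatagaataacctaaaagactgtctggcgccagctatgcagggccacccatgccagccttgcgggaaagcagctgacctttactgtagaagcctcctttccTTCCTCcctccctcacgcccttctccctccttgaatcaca
Cd68, chr11:69666171-69666420, minus strand: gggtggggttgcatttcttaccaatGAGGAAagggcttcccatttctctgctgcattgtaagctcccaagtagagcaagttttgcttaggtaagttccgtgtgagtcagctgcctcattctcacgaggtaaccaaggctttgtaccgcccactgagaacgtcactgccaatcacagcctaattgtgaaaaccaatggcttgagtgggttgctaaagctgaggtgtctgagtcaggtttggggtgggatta
Itgam, chr7:128062390-128062639, plus strand: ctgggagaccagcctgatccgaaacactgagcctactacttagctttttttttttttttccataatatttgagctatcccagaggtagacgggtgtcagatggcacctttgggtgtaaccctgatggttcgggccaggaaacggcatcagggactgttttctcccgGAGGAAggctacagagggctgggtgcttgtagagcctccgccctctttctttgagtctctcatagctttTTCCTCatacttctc
Searched on both strands of the full windows of 300 bases, the letters GAGGAA were in 4 of the 6 windows (Itgam, Cd68, Aif1 and Trem2) and in 28.3% of all 27025 windows. The longer form GAGGAAGT, with which the shorter overlaps, was in 0 of 6 and in 3.28% of all windows. The composite of ETS and IRF factors, GGAANNGAA, was in 1 of 6 (Cd68, after the start) and in 8.25%, and the RUNX letters TGTGGTT were in 0 of 6 and in 5.37%. Spi1 was at 1.97 ± 0.791 CPM in WT (SD, n = 5) and 1.49 ± 0.154 CPM in KO (SD, n = 6). These matches are descriptions of letters.

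The deletion cannot be checked in these counts, since the expected count of Mir211 was 0 in all 11 libraries. Its host gene Trpm1 was at 331 to 496 CPM in WT and 413 to 465 CPM in KO. The study used WT animals of both sexes and KO males. It compared WT males, WT females and all WT animals with the KO males, and reports comparable results with the same gene ontology terms enriched. Xist was at 796 to 1636 CPM in WT replicates 1, 3 and 5 and at most 1.29 CPM in every other library. The part of sex in the member levels was not tested. Genotype and sex cannot be fully told apart in this design.

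On GRCm38, all 9 members are annotated as protein-coding genes, and reads were counted over their exons, UTRs included. Aif1 (chr17:35170991-35176068, minus strand) and Trem2 (chr17:48346401-48354147, plus strand) share a chromosome, as do Tyrobp (chr7:30413760-30417585) and Itgam (chr7:128062640-128118491), both on the plus strand. Cx3cr1 (chr9:119901616-120069879), P2ry12 (chr3:59216272-59262871), Tmem119 (chr5:113793729-113800516) and Cd68 (chr11:69664213-69666153) are on the minus strand, and Csf1r (chr18:61100598-61132149) is on the plus strand. Csf1r overlaps Hmgxb3 on the opposite strand over 873 exonic bases, and P2ry12 lies inside Med12l, also on the opposite strand, with 9 shared exonic bases of its 2546. The sources used here do not say whether reads were counted by strand, so that reads of the shared bases cannot be assigned to either gene with certainty. Itgam shares 3450 of its 5024 exonic bases with Gm49368, a gene model on the same strand that was not used here.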

How the data were processed

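Per the labels, total RNA of each eye sample was made into a TruSeq library and read in pairs of 100 bases. The authors aligned the reads to the Gencode mouse annotation with RSEM 1.2.19 and deposited, per gene and library, the expected count, an estimate of read pairs that is not normalized, and the FPKM, which is scaled by gene length and mapped fragments. Strand use in counting is not given in the sources used here. Expected counts were rounded, and 15767 genes that reached 1 CPM in 5 or more libraries were kept, as in the study's methods. Genotype was the only term in edgeR 4.0.16 (R 4.3.3, TMM scaling, estimateDisp, glmFit and glmLRT), with Benjamini-Hochberg adjustment and a threshold of 0.1. Log2 CPM used a prior count of 2. The test was tested on simulated data, drawn independently for each gene without an outlying library or a library series. That simulation therefore does not cover these features of the data. Alternatives were the quasi-likelihood test, DESeq2 1.42.0, other scalings and filters, a block for the replicate number, the series of libraries (matched to the columns of the study's table by proportion of counts) and each library left out. The members and gene lists were chosen with earlier results of these data known. The genes named were the members and, in each list, those with an adjusted p under 0.1, up to 4 with an unadjusted p under 0.05 and the 2 most abundant, with the 10 genes most like the members and Xist, Mir211 and Trpm1. Other genes were named after their values were seen, and a gene that the rule names is not reported here. Precision is limited by the spread between libraries as well as by depth, which was 20282241 to 36317673 read pairs per library. Itgam, with 297 to 2713 read pairs per library, had the largest SE of the members, 0.51. Libraries came from separate biological replicates.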

Additional observations from a re-analysis of the deposited data

Results flagged for a closer look

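In 7 of the 9 members WT replicate 1 lay far from the other 4 WT libraries, judged by its gap to the next library over the range of its group: Trem2 (10.6 CPM), Tyrobp (16.5 CPM), Cd68 (18.7 CPM), Aif1 (3.02 CPM), Csf1r (86.1 CPM), Tmem119 (10.6 CPM) and Cx3cr1 (15.1 CPM). KO replicate 3 lay far from the other 5 KO libraries in P2ry12 (5.26 CPM) and Tmem119 (8.29 CPM). Of 18 groups examined 9 were marked in this way, where chance marks about 1 in 20, but the members are read in the same libraries and are not independent. No member passed the test of the interaction term between genotype and library series (edgeR, smallest adjusted p of 1.00, smallest unadjusted p of 0.0727). With only WT replicates 1 and 2 in the mouse-number series, the term can miss a difference.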

How the results depend on the processing

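No member had an adjusted p under the threshold in any fit, and the lowest over all settings was 0.616 (Itgam with the series covariate). The median of the members kept its sign throughout the fits that left out 1 library, from -0.35 to -0.01, and that of the 6 immune lists ran from -0.49 to -0.12. Members below 0 numbered 6 to 9 in those fits and 3 without WT replicates 1 and 4 together, a setting added after the data were seen. Members with an unadjusted p under 0.05, 0 in the main test, numbered 1 with DESeq2, 3 with the series covariate, 2 in the mouse-number series and 0 to 2 with 1 library left out, with 2 without WT replicate 2 or replicate 3 and 1 without WT replicate 4. Immune list genes lower at that limit, 13 in the main test, numbered 8 without TMM factors, 31 with the series covariate and 2 without WT replicates 1 and 4. With 1 library left out they numbered 5 (without WT replicate 1) to 20 (without KO replicate 1). Of all genes, 1.77% were lower at that limit in the main test, 5.23% with the series covariate and 0.841% without WT replicate 1. The share of all genes is not given for the other settings. Signs turned for Aif1 (0.33) and Cd68 (0.10) without WT replicate 1, for P2ry12 without WT replicate 2 (-0.021) or KO replicate 3 (-0.036), for Aif1 (0.14) and Trem2 (0.047) in the age series, and without WT replicates 1 and 4 for Aif1 (0.35), Cx3cr1 (0.062), Cd68 (0.12), Trem2 (0.010) and Itgam (0.15). With 1 library left out, Aif1 lay between -0.32 and 0.33 on the log2 scale, Cd68 between -0.53 and 0.10, and P2ry12 between -0.036 and 0.25. The causes were not tested. None of the 10 genes most like the members remained without the 2 libraries farthest from the median. The quasi-likelihood test, upper-quartile and DESeq2 size factors and both filters turned no sign of a member and moved no count beyond 1.5 times. FPKM turned no sign of a member, and at a threshold of 0.05 the members called remained 0. With the replicate number as a block and KO replicate 6 left out, 7 members were below 0 with a median of -0.24, Aif1 turned to 0.11, and 16 list genes were lower at p under 0.05, against 8 in the same 10 libraries without the block (added after the data were seen). Same-numbered libraries correlated from -0.33 to 0.63, which cannot decide whether the numbers pair the animals. The block also joins WT replicate 3 and KO replicate 3, at -0.33, which are of different series. At this depth Aif1 rests on as few as 19 read pairs, and its 95% interval of -0.89 to 0.59 leaves changes of either direction possible.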
